A study of Rattus norvegicus with 10 samples.

Results

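Chemokines of the nucleus tractus solitarii (NTS) were examined through 9 genes: the ligands Cxcl12, Cxcl14, Cx3cl1, Cxcl16, Cxcl1, Ccl2, Ccl3 and Ccl5, and Cxcr4, the receptor of Cxcl12. Every probe set that the platform annotation assigns to 1 of these genes and to no other was taken, which gave 14 of the 31042 probe sets on the array. Cxcl12 and Cxcr4 have 3 probe sets each, Cxcl14 has 2, and each of the other genes has 1. The NTS is the part of the caudal brainstem that receives baroreceptor and other visceral afferents. It was taken from male rats aged 10 to 13 weeks of 2 inbred strains, the spontaneously hypertensive rat (SHR) and its usual normotensive control, the Wistar-Kyoto rat (WKY), and total RNA was amplified and hybridised to 5 Affymetrix arrays of each strain. The labels give no treatment, and no allele beyond the strain. The series text counts each array as a biological replicate, while the sample descriptions name 5 animals, so an array may hold 1 animal or a pool, and p-values cover only the variation from array to array.

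Chemokines are small secreted or membrane-bound proteins that guide the movement of cells through G protein-coupled receptors. In the adult brain some of them are made without any challenge: Cx3cl1 (fractalkine) sits on the membrane of neurons and binds Cx3cr1 on microglia, Cxcl12 acts on Cxcr4 and on the scavenging receptor Ackr3, and Cxcl14 is expressed by subsets of neurons. Others, such as Cxcl1, Ccl2, Ccl3 and Ccl5, are known mainly as products of glia, endothelium and leukocytes after inflammatory stimulation through NF-kB, and attract neutrophils, monocytes or lymphocytes. Cxcl16 is a transmembrane chemokine like Cx3cl1, and binds Cxcr6.

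RefSeq sequence before the annotated start of the gene (build GRCr8, of the reference strain, not of SHR or WKY) was found for 6 of the 9 genes. The last 150 bases before the start are shown for the 3 constitutive ligands and for Cxcl1, an inducible one, because the results are ordered by these classes. Capitals mark matches on either strand to a TATA box (TATAAA), a GC box (GGGCGG), an AP-1 site (TGANTCA) or the consensus site of NF-kB.
Cxcl14, chr17:8323000-8323149, + strand: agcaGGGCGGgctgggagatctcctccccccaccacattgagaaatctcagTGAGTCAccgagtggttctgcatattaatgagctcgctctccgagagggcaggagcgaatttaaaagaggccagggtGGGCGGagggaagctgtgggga
Cxcl12, chr4:152060631-152060780, + strand: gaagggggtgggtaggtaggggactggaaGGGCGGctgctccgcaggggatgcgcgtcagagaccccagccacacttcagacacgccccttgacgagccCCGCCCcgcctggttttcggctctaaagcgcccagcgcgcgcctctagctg
Cx3cl1, chr19:10242821-10242970, - strand: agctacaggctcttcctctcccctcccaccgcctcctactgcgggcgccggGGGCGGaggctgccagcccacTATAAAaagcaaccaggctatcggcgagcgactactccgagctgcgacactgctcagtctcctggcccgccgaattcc
Cxcl1, chr14:17479322-17479471, - strand: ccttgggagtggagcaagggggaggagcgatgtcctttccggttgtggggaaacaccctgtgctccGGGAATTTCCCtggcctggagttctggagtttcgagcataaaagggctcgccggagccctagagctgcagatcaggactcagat
In the 250 bases before the start, the GC box was found in Cxcl12, Cxcl14, Cx3cl1 and Cxcr4, against 30.5% of the 33469 promoters of the table. The NF-kB site was matched in Cxcl1 and in none of the other 5, against 6.33% of all promoters. In Cxcl1 it lies at 84 to 75 bases before the start, and an overlapping match on the other strand lies at 83 to 74. The AP-1 letters were found in Cxcl14, at 99 to 93 bases before the start, and in 6.34% of all promoters. The TATA letters stood in Cx3cl1 and Cxcr4, and in 12.9% of all promoters. Cxcl16 held none of the 4 motifs. These matches are letters in a window, not measured binding.

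Signals are the deposited intensities on a linear scale, with each array already scaled to the same trimmed mean. Strains were compared with limma on log2(signal + 16), for the 18846 probe sets at or above the 40th percentile of their array on at least 5 of the 10 arrays, and a Benjamini-Hochberg adjusted p below 0.05 over all of them was the threshold. By that rule 803 probe sets passed, 4.26% of those tested, 388 higher and 415 lower in SHR. The median of an array was 44.2 to 49.8 for SHR and 39.6 to 45.7 for WKY, highest on SHR 3 and SHR 2 and lowest on WKY 5 and WKY 4. The ratio of the 3' to the 5' control probe sets, a sign of RNA quality, was 1.12 to 1.34 in SHR and 1.07 to 1.2 in WKY for GAPDH, and 2.26 to 3.92 and 2.64 to 3.54 for beta-actin. SHR 3, the highest array for Ccl3 and 1396129_at and the lowest for Cxcl16, had the highest ratio of both; the part of RNA quality in these values was not tested. Of the 13 genes listed as marks of the NTS and dorsal hindbrain, 10 had a probe set of their own and 9 were kept, among them the noradrenergic enzyme genes Th and Dbh and the peptide gene Prlh. Whole tissue was measured, so fewer cells of a type and less RNA per cell cannot be told apart.

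Of the 14 probe sets, 10 were kept and 4 were too dim to be tested. Among the kept ones, 1 was lower in SHR and 0 were higher, beside 2.20% lower and 2.06% higher among all kept probe sets, so a single call among 10 shows no excess. At an unadjusted p under 0.05 in limma, 2 were lower and 1 was higher. Of all 18846 kept probe sets 3960 lay under that level, 1813 lower and 2147 higher, which is the background for each such count below. The one that passed was the brighter probe set of Cxcl14, whose strains did not overlap, as was true of 6.13% of all kept probe sets. The median log2 difference of the 10 was 0.066, with 7 above 0 and 3 below, beside a median of 0.016 over all kept probe sets. Probe sets of the same gene did not all point the same way: the pair for Cxcl14 and the 3 for Cxcr4 each held both signs.

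Whether a probe set was bright enough to test depends on its probes as well as on the transcript, and 18846 of all 31042 were. All 3 constitutive ligands were tested, on 5 of their 6 probe sets, whereas of the 5 inducible ligands Cxcl16 and Ccl3 were tested and Cxcl1, Ccl2 and Ccl5 were not. The 5 constitutive probe sets had a median log2 difference of 0.098, from -0.41 to 0.42, with 4 above 0. The 2 inducible ones stood at -0.58 (Cxcl16) and 0.22 (Ccl3). The median residual SD on the log2 scale was 0.11 for the constitutive and 0.31 for the 2 inducible probe sets, beside 0.16 over all kept probe sets. The inducible ones had 0.34 (Cxcl16) and 0.28 (Ccl3). Among the constitutive ones 1396129_at of Cxcl14 had 0.31 and Cx3cl1 had 0.22, so a wide spread was not particular to the inducible class.

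Cxcl14 is a chemokine of neurons and epithelia whose receptor is not settled. On its brighter probe set, 1388485_at, the SHR arrays 1 to 5 had signals of 173, 148, 137, 134 and 143, and the WKY arrays 1 to 5 had 206, 202, 201, 211 and 184. Every SHR array lay below every WKY array, with SHR 1 the nearest to the WKY range and WKY 5 the nearest to the SHR range. The means were 147 ± 15.7 for SHR and 201 ± 10.1 for WKY (SD, n = 5). On the fitted scale, log2(signal + 16), the difference was -0.41 ± 0.077, or 1.33-fold lower in signal + 16 (SE; 95% interval -0.58 to -0.25; limma adjusted p = 0.00427). With 1 array left out the difference stayed between -0.47 and -0.38 and passed in all 10 fits. With the array median added to the model as a covariate the difference was -0.42, and its adjusted p of 0.0706 did not pass.

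The second Cxcl14 probe set, 1396129_at, was dimmer and ran the other way. It read 39.0, 55.3, 63.8, 32.4 and 35.0 on SHR 1 to 5 and 24.1, 36.0, 44.7, 21.4 and 21.8 on WKY 1 to 5. The strains overlapped: WKY 3 and WKY 2 lay above SHR 5 and SHR 4. The means were 45.1 ± 13.7 in SHR and 29.6 ± 10.4 in WKY, and the log2 difference of 0.42 ± 0.17 did not pass (95% interval 0.054 to 0.79; adjusted p = 0.173). It reached the filter level on 4 SHR and 2 WKY arrays. Its highest arrays, SHR 3 and SHR 2, are those of the highest median signal, and its lowest, WKY 4 and WKY 5, are those of the lowest. With the median signal as a covariate its difference was -0.021, and without SHR 2 and SHR 3 it was 0.20. With the replicate number as a block it was 0.42 and passed (adjusted p = 0.0469), but the numbers were not taken as pairs. The brighter probe set did not follow that order, since it was highest on WKY 4, and its difference without SHR 2 and SHR 3 was -0.39 (adjusted p = 0.0226). The 2 probe sets derive from different sequences in the annotation (BG380414 and AI412979), so the lower level of Cxcl14 in SHR rests on 1 probe set of 2.

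**Figure D1:**
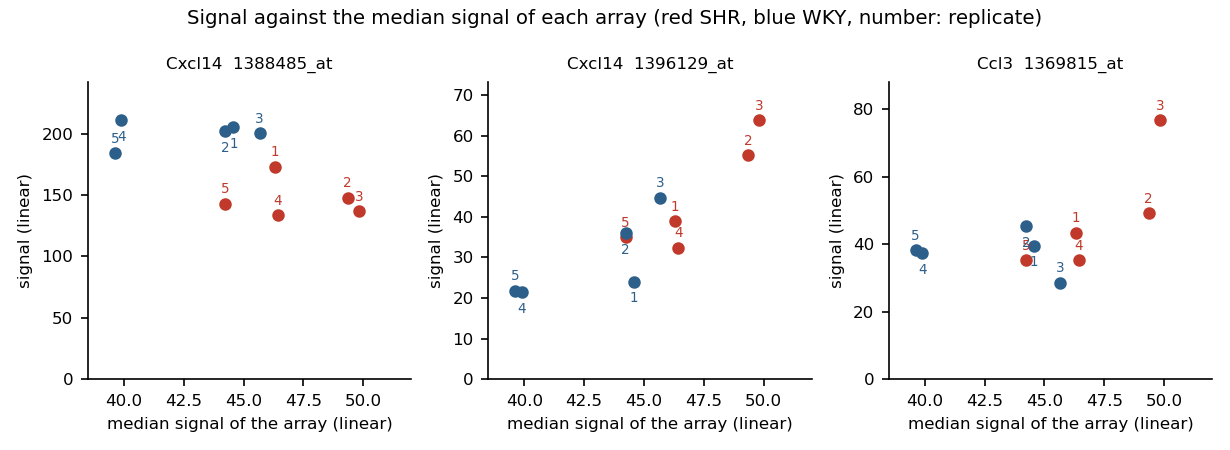
Signal of both Cxcl14 probe sets and of Ccl3 on each array (linear, vertical axis) against the median signal of that array (horizontal axis), red for SHR and blue for WKY, numbered by replicate. The dimmer Cxcl14 probe set is highest on SHR 3 and SHR 2 (63.8 and 55.3) and lowest on WKY 4 and WKY 5 (21.4 and 21.8), the arrays of highest and lowest median signal, while the brighter one splits by strain.

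Cx3cl1, the membrane-bound fractalkine through which neurons signal to microglia, had 1 probe set, 1368200_at. The SHR arrays 1 to 5 read 282, 319.9, 318, 218 and 280.3, and the WKY arrays 296, 273, 282, 203 and 221. The ranges overlapped over most of their length, with SHR 4 as low as the lower WKY arrays and WKY 1 above 3 of the SHR arrays. Means were 283 ± 41.3 in SHR and 255 ± 40.5 in WKY, and the log2 difference of 0.15 ± 0.11 did not pass (95% interval -0.085 to 0.38; adjusted p = 0.471). The interval leaves room for a difference in either direction, and with the median signal as a covariate the value was -0.14.

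Cxcl12, the ligand of Cxcr4, had 2 probe sets that were kept and 1 that was too dim. On 1388583_at the SHR arrays 1 to 5 read 181, 157, 174, 175 and 152, and the WKY arrays 150.4, 177, 159, 146 and 158. On 1369633_at they read 119, 117, 103, 131 and 124 in SHR and 115, 108, 119, 106 and 101 in WKY. Both probe sets had overlapping strains and slightly higher means in SHR. The log2 difference was 0.078 ± 0.075 on the first (95% interval -0.081 to 0.24; adjusted p = 0.589) and 0.098 ± 0.082 on the second (-0.074 to 0.27; adjusted p = 0.520), and neither passed. The highest array was SHR 1 on 1388583_at and SHR 4 on 1369633_at. The third, 1387655_at, reached the filter level on 0 of 10 arrays, with signals from 5.15 to 33.1.

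**Figure D2:**
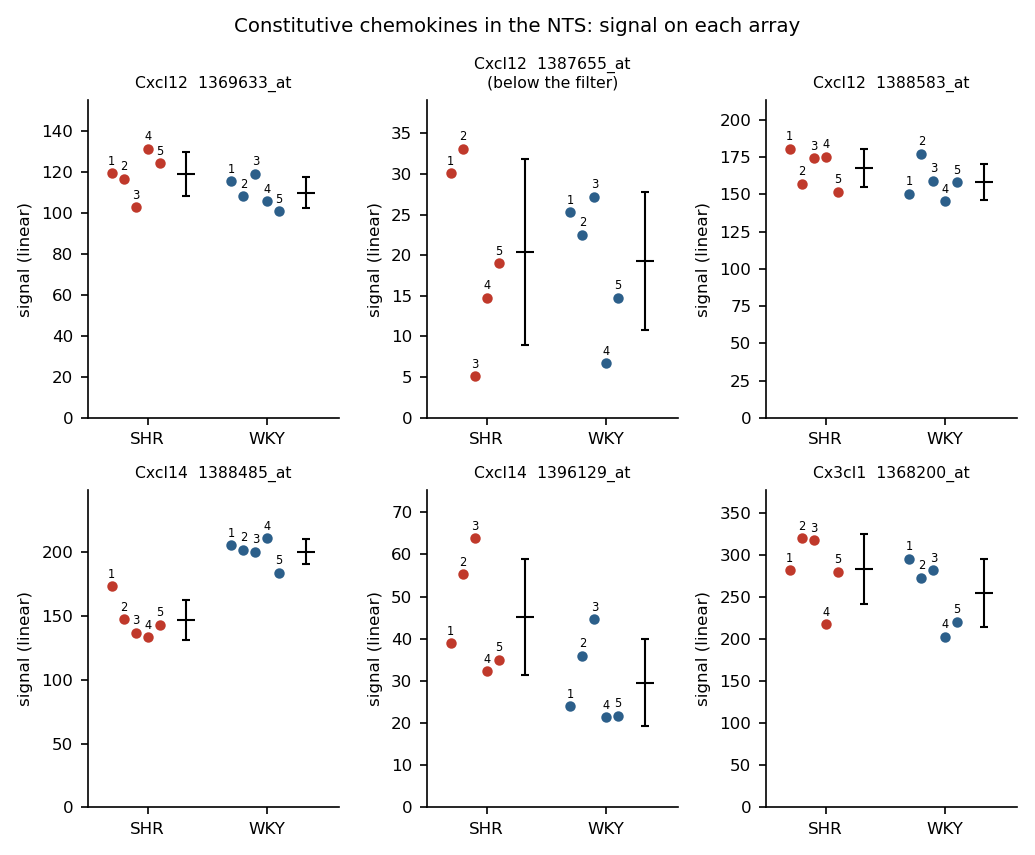
Signal (linear, vertical axis) of the 6 probe sets of Cxcl12, Cxcl14 and Cx3cl1 on each SHR (red) and WKY (blue) array, numbered by replicate, with the mean and SD of each strain as black bars. Only 1388485_at of Cxcl14 has strains that do not overlap, with SHR at 134 to 173 and WKY at 184 to 211.

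Among the inducible ligands Cxcl16, the transmembrane ligand of Cxcr6, had the lowest difference. Its probe set 1372064_at read 37.4, 29.5, 12.02, 34.1 and 14.4 on SHR 1 to 5 and 37.1, 41.3, 61.5, 40.2 and 42.7 on WKY 1 to 5. The strains overlapped only in that SHR 1 lay just above WKY 1, and SHR 3 and SHR 5 lay far below the rest. The means were 25.5 ± 11.6 in SHR and 44.6 ± 9.70 in WKY, and the log2 difference of -0.58 ± 0.19 did not pass (95% interval -0.97 to -0.19; adjusted p = 0.0855). With quantile normalization it was -0.69 and passed (adjusted p = 0.0419). Of the SHR arrays 2 reached the filter level, and of the WKY arrays 5, so a probe set like this was kept through WKY. The offset matters at these signals: the difference was -0.89 with an offset of 1 and -0.28 with an offset of 64.

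Some markers of microglia and macrophages, cells that can make Cxcl16, were lower in SHR beside it. Of 11 kept probe sets on that list 4 were lower and 0 higher in limma, beside 2.20% lower over all kept probe sets. They were C1qa (-0.42), C1qb (-0.46), Ctss (-0.28) and 1 probe set of Aif1 (-0.52). The other kept probe set of Aif1 had a difference of 0.51 (adjusted p = 0.124), the opposite sign. At an unadjusted p under 0.05 the list had 5 lower and 1 higher, beside 1813 lower and 2147 higher of all 18846 kept probe sets. P2ry12, Tmem119, Csf1r, Itgam and Cx3cr1 did not pass. The sum of the signals of the 9 kept genes of the list, each by its brightest probe set, was 2121 to 2307 for SHR and 2618 to 2904 for WKY. On the linear scale it follows the brightest genes, Ctss (mean 1008 in SHR and 1222 in WKY) and C1qa (431 and 584). Both are among the 4 called, so the sum is not a separate result. Cd68 and both probe sets of Trem2 were too dim to be kept; in the fit without a filter their differences were 0.70 for Cd68 and 0.34 and -0.063 for Trem2 (adjusted p = 0.0987, 0.122 and 0.847). The part of these cells in the value of Cxcl16 was not tested. Of 2 kept probe sets for blood leukocytes, 1 was lower, that of Lyz2, which macrophages also express, while Ptprc, Cd3e, Cd3g, Cd79b, S100a8 and S100a9 were all too dim to be kept.

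Ccl3, a ligand of Ccr1 made by activated microglia and macrophages, was kept on 9 arrays. Its probe set 1369815_at read 43.4, 49.2, 76.7, 35.3 and 35.2 on SHR 1 to 5 and 39.6, 45.3, 28.6, 37.4 and 38.3 on WKY 1 to 5. SHR 3 stood well above all others, and the other SHR arrays lay in or near the WKY range. The log2 difference of 0.22 ± 0.16 did not pass (95% interval -0.11 to 0.55; adjusted p = 0.447), and without SHR 3 it was 0.077.

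Cxcl1, Ccl2 and Ccl5 were below the filter, so they are described with values from the same model fitted without a filter, in which 2.18% of 31042 probe sets passed. Cxcl1, a neutrophil attractant that acts through Cxcr2, had signals of 1.14 to 2.90 on 4 SHR arrays and 12.4 on SHR 5, and of 0.623 to 6.80 in WKY. Ccl2, the monocyte attractant of Ccr2, read 1.93 to 3.49 in SHR and 0.892 to 2.66 in WKY. All of these signals lay under the offset of 16, which shrinks differences at this level. Ccl5, which attracts T cells and monocytes, read 21.6, 32.9, 35.8, 34.1 and 25.2 on SHR 1 to 5 and 41.9, 15.8, 23.1, 2.77 and 23.5 on WKY 1 to 5. It reached the filter level on 1 array of each strain, and its highest and its lowest array were both WKY. Log2 differences in that fit were 0.049 for Cxcl1, 0.079 for Ccl2 and 0.38 for Ccl5 (adjusted p = 0.881, 0.539 and 0.431), and none passed. Whether these transcripts are absent from the NTS cannot be read from the signals, because no detection calls were used here.

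Cxcr4, the Gi-coupled receptor of Cxcl12, had 3 probe sets, and 2 of them, 1373661_a_at and 1389244_x_at, derive from the same sequence (AA945737). The suffix _x_at marks a probe set in which some probes may match other transcripts. On 1370097_a_at SHR 1 to 5 read 48.2, 45.0, 55.3, 59.0 and 46.7 and WKY 1 to 5 read 56.7, 40.9, 53.5, 55.7 and 42.6, and the strains lay on top of each other. The log2 difference was 0.024 ± 0.11 (95% interval -0.22 to 0.27; adjusted p = 0.930). On 1389244_x_at it was 0.055 ± 0.13 (-0.22 to 0.33; adjusted p = 0.847), and its highest array, SHR 3 at 116, and its lowest, SHR 5 at 59.7, were both SHR.

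The remaining Cxcr4 probe set, 1373661_a_at, varied most within SHR. It read 32.8, 74.1, 77.4, 42.3 and 16.1 on SHR 1 to 5 and 56.7, 51.9, 83.3, 56.5 and 49.4 on WKY 1 to 5. SHR 2 and SHR 3 lay within the WKY range and the other 3 SHR arrays below all of it. The log2 difference of -0.32 ± 0.23 did not pass (95% interval -0.81 to 0.17; adjusted p = 0.452). Without SHR 2 and SHR 3 together it was -0.73 and passed (adjusted p = 0.0459), and without SHR 5 it was -0.095. With the median signal as a covariate it was -0.92 and did not pass (adjusted p = 0.0999). The 2 probe sets of the same sequence thus differed in sign, and neither passed with all 10 arrays.

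**Figure D3:**
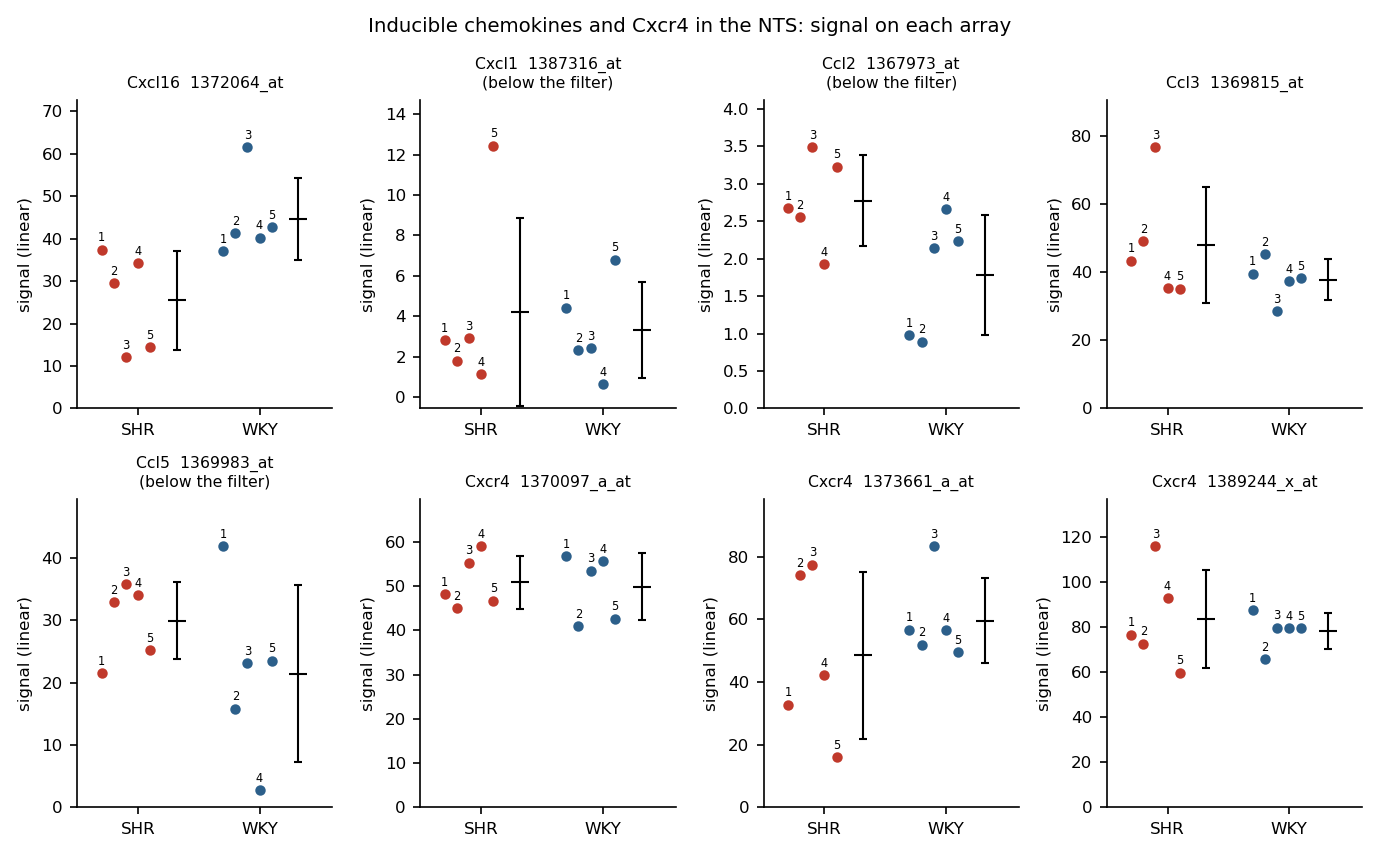
Signal (linear, vertical axis) of the 5 probe sets of inducible ligands and the 3 of Cxcr4 on each SHR (red) and WKY (blue) array, numbered by replicate, with mean and SD as black bars. Strains overlap in all 8 panels; Cxcl16 comes nearest to a split, and 1373661_a_at of Cxcr4 spreads from 16.1 to 77.4 within SHR.

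**Figure D4:**
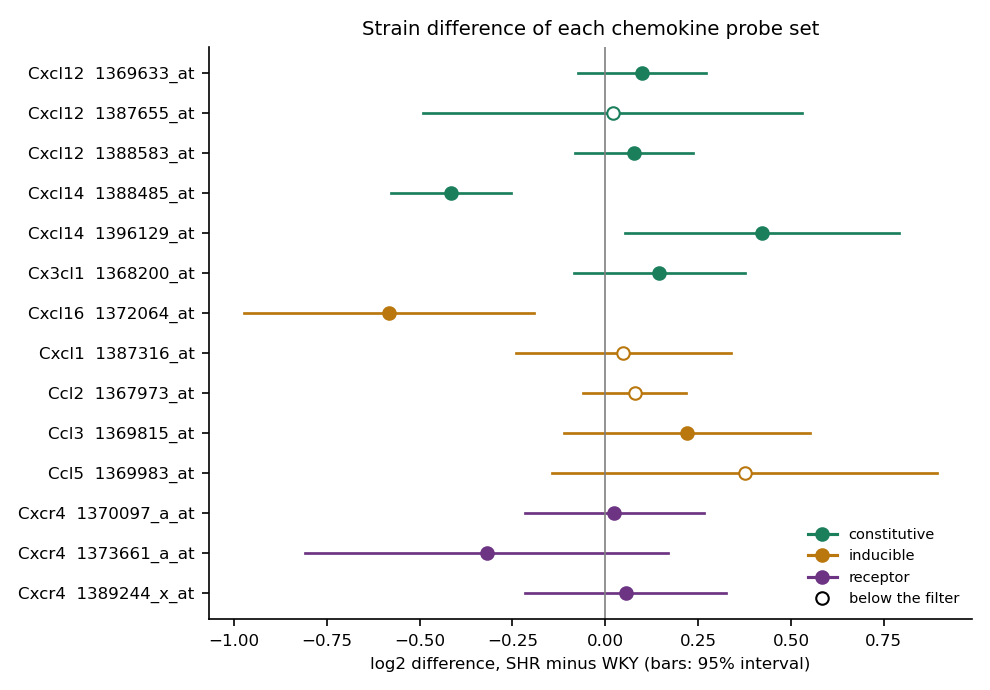
Log2 difference, SHR minus WKY, of each of the 14 probe sets with its 95% interval, coloured by class; open points are probe sets below the filter, taken from the fit without a filter. The intervals of both Cxcl14 probe sets exclude 0 on opposite sides, at -0.58 to -0.25 and 0.054 to 0.79, and that of Cxcl16 excludes 0 below, at -0.97 to -0.19. These intervals are not adjusted for the number of probe sets.

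The genes around these chemokines were described through 5 lists: other ligands, receptors, proteins that shed or present chemokines, signalling partners of the receptors, and inducers. Over the lists 66 of 133 probe sets were kept, and 2 were higher and 1 lower in SHR, where 4.26% of all kept probe sets passed. The median log2 difference was 0.023, beside 0.016 over all kept probe sets. At an unadjusted p under 0.05 in limma 5 were higher and 6 lower, beside 2147 and 1813 of all 18846 kept probe sets.

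Among other ligands, 5 of 29 probe sets were kept, 1 was higher and 0 lower in SHR in limma, beside 2 higher and 0 lower at an unadjusted p under 0.05. The one that passed was Cxcl11, an interferon-inducible ligand of Cxcr3, with 35.9, 53.7, 37.6, 44.0 and 35.7 on SHR 1 to 5 and 26.3, 13.5, 17.7, 17.8 and 24.1 on WKY 1 to 5. It reached the filter level on 5 SHR and 0 WKY arrays, so it was tested only through the strain where it was higher. With that limit, the log2 difference was 0.68 ± 0.15 (adjusted p = 0.0119), and the strains did not overlap. It was too dim to be kept in 5 of the 10 fits without 1 array and passed in the other 5, and it did not pass with the median signal as a covariate (0.65; adjusted p = 0.164). Pf4, the platelet chemokine, also had strains that did not overlap but missed the threshold (0.41 ± 0.12; adjusted p = 0.0605). The interferon-inducible ligands Cxcl9 and Cxcl10 were too dim to be tested.

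Of the receptors 8 of 18 probe sets were kept and 0 passed in limma, while 1 had an unadjusted p under 0.05. Cx3cr1, the microglial receptor of Cx3cl1, had 45.1 ± 12.4 for SHR and 37.0 ± 7.03 for WKY and differed by 0.19 ± 0.15 on the log2 scale (adjusted p = 0.510). Ackr3, the scavenging receptor that removes Cxcl12, had 37.7 ± 4.35 and 50.5 ± 12.2, a difference of -0.29 ± 0.13 (adjusted p = 0.215). Ccr1, Ccr2 and Cxcr2, the receptors of Ccl3, Ccl2 and Cxcl1, were too dim to be tested, and Cxcr6 was not analysed here.

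Adam10 and Adam17, the metalloproteases that shed Cx3cl1 and Cxcl16 from the membrane, differed by 0.044 ± 0.080 and 0.037 ± 0.095 (adjusted p = 0.799 and 0.862). Among the 17 kept probe sets of processing and presentation 0 passed in limma, and 3 had an unadjusted p under 0.05; Dpp4, the peptidase that inactivates Cxcl12, was too dim. Among the 20 of receptor signalling 0 passed as well, again with 3 at an unadjusted p under 0.05.

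Of the 16 kept probe sets of inducers, 1 was higher and 1 lower in SHR. Rela, the p65 subunit of NF-kB that drives genes such as Cxcl1 and Ccl2, read 151, 144, 141, 121 and 125 on SHR 1 to 5 and 99.6, 90.8, 84.3, 84.3 and 113 on WKY 1 to 5. All SHR arrays lay above all WKY arrays, the log2 difference was 0.47 ± 0.092 (adjusted p = 0.00667), and it passed in all 10 fits without 1 array. With the median signal as a covariate it was 0.47 and did not pass (adjusted p = 0.0999). Tnfrsf1a, a receptor of tumour necrosis factor, was lower (-0.42 ± 0.11; adjusted p = 0.0391), and that call ended in 8 of 10 fits without 1 array. Nfkb1, the partner subunit, differed by -0.093 ± 0.15, and Nfkbia, the inhibitor and target of NF-kB, by 0.11 ± 0.088 (adjusted p = 0.767 and 0.496). The cytokines Tnf, Il1a, Il1b, Il6 and Ifng were too dim to be tested.

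**Figure D5:**
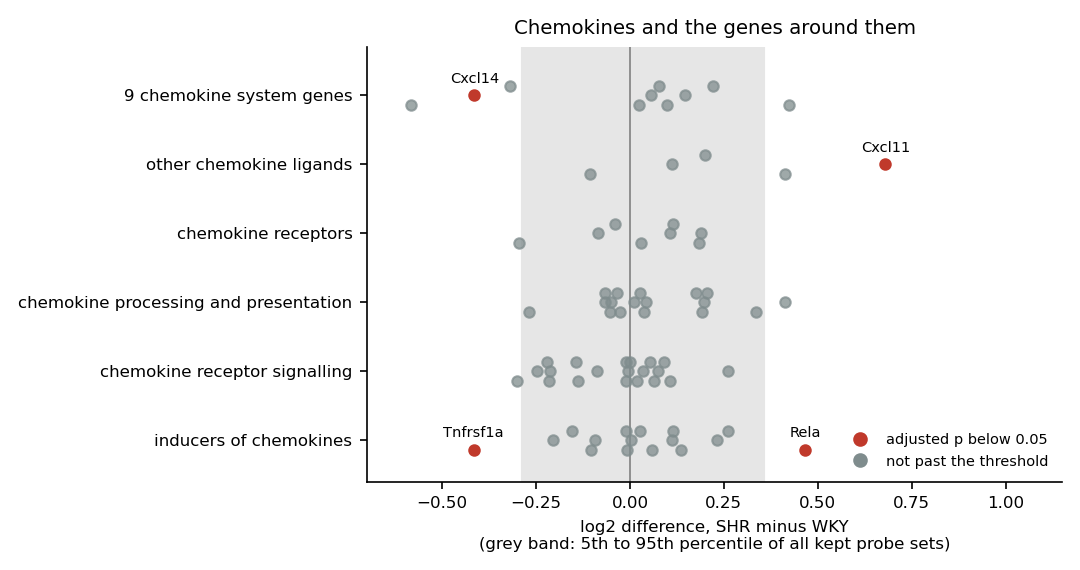
Log2 difference, SHR minus WKY (horizontal axis), of each kept probe set of the 9 genes and of the 5 lists around them; red points passed at an adjusted p below 0.05, and the grey band spans the 5th to the 95th percentile of all kept probe sets, -0.29 to 0.36. The 4 red points are Cxcl14, Cxcl11, Tnfrsf1a and Rela.

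Markers of the NTS and of cells it can hold were compared beside the constitutive ligands. Over all kept probe sets, 2.20% were lower and 2.06% higher in SHR. At an unadjusted p under 0.05 in limma, 1813 of all 18846 were lower and 2147 higher. Of 12 kept probe sets of neurons, 1 was higher (Snap25, 0.33) and 1 lower (1 of Thy1, -0.77) in SHR in limma. The other kept probe set of Thy1 had -0.13 with overlapping strains and did not pass (adjusted p = 0.548). The sum over the 8 neuronal genes was 11582 to 12797 for SHR and 10036 to 11811 for WKY. Of 12 kept probe sets of astrocytes 0 passed in limma, with 2 higher and 0 lower at an unadjusted p under 0.05, and the sums, 15870 to 19044 and 15310 to 17078, overlapped. Of 12 kept probe sets of oligodendrocytes 2 were lower and 0 higher in limma, both of Mobp (-1.41 and -0.34, adjusted p = 9.68e-09 and 0.0126). The other probe set of Mobp had -0.022 (adjusted p = 0.925) and did not pass. All kept probe sets of Mbp ran the other way, with 0.28, 0.32 and 0.093, and did not pass (adjusted p = 0.0992, 0.266 and 0.672). Mag, Mog and Cnp had values below 0 and Cldn11 had both signs, and none of them passed. The median difference of the list was -0.030. At an unadjusted p under 0.05 that list had 1 higher and 2 lower, and its sums were 7720 to 9646 and 7304 to 9466. Of 8 kept for endothelium and pericytes 1 was lower, that of Vwf (-0.52), while Pecam1 had 0.40 and did not pass (adjusted p = 0.0851). The strains of Pecam1 did not overlap, as was true of 6.13% of all kept probe sets. Pecam1 reached the filter level on 5 SHR and 2 WKY arrays, so it was kept through the strain where it was higher. At an unadjusted p under 0.05 that list had 1 higher and 1 lower, and its sums were 1022 to 1091 and 964 to 1091. Of the 10 kept probe sets of the NTS list, 1 was lower and 0 higher in limma, and at an unadjusted p under 0.05 there were 3 lower and 0 higher. The one that passed was Prlh, with -0.42 (adjusted p = 0.0379), a difference near that of the brighter Cxcl14 probe set. Dbh had -0.27 and Th -0.18 (adjusted p = 0.114 and 0.205), and neither passed. The sums of the NTS list were 4252 to 4721 for SHR and 4447 to 5577 for WKY. Of 5 kept probe sets of choroid plexus and ependyma 2 were higher and 0 lower in limma, those of Enpp2 (0.28) and Sostdc1 (0.47). The other genes kept, Ttr, Foxj1 and Folr1, had 0.068, 0.025 and 0.24 and did not pass (adjusted p = 0.930, 0.910 and 0.262). The sums were 949.7 to 1120.2 for SHR and 761 to 1014 for WKY. Most of each sum was Enpp2, with means of 748 and 612. Sostdc1 reached the filter level on 5 SHR and 2 WKY arrays, so it was kept through the strain where it was higher. In the limma fit without a filter Sostdc1, Enpp2, Prlh and Snap25 did not pass (adjusted p = 0.0638, 0.0585, 0.0838 and 0.112). The calls of Thy1, Mobp and Vwf passed in that fit too. The part of any of these cells, or of the tissue taken, in the values of Cxcl12, Cxcl14 and Cx3cl1 was not tested.

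For the brightest kept probe set of each of the 6 tested genes, the 3 genes with the most similar profile were taken by Pearson r of log2 values over the 10 arrays, as a description. The points share arrays and scaling, and the highest of so many correlations is high by selection. Cxcl14 ran most like Clec16a (r = 0.965), the helicase gene Ighmbp2 (0.959) and Tomm22 (0.945), a subunit of the mitochondrial import receptor. Clec16a and Ighmbp2 were also lower in SHR, by -0.34 ± 0.063 and -0.97 ± 0.15 (limma adjusted p = 0.00396 and 0.00108). A choice by r over both strains favours genes that differ by strain as Cxcl14 does, so these calls are not a separate result. After each strain's mean was removed, r with Cxcl14 was 0.784, 0.732 and 0.902. Cx3cl1 ran most like Rpp25l (0.938), Siae (0.933) and the phospholipase D gene Pld1 (0.923), Cxcl12 most like Atpaf1 (0.922), Tmem221 (0.893) and Ankzf1 (0.885), and Cxcl16 most like the apoptosome gene Apaf1 (0.944), Mak16 (0.933) and Eva1a (0.933). Ccl3 ran most like the casein kinase gene Csnk1a1 (0.950), Tspan5 (0.938) and Il34 (0.938), a ligand of the microglial receptor Csf1r. For Ccl3 the array SHR 3 stood well above all others, and the Spearman rank correlations were 0.842, 0.855 and 0.721. Cxcr4 was taken by 1389244_x_at, in which some probes may match other transcripts. That probe set ran most like the monoacylglycerol lipase gene Mgll (0.928), Mrps2 (0.907) and Aagab (0.896).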

How the data were processed

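NTS total RNA was purified, amplified (MessageAmp II) and labelled per the labels' protocols, and read on arrays of 1 colour. Values are deposited as a linear intensity per probe set and array; GCOS 1.2 is the tool that the submitters' processing notes name. The authors had scaled each array: its mean after trimming 2% at each end is 100. The background step, detection calls and scan batches were not stated in the labels or the table.

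Titles gave the strain of each sample, and a title with no number was taken as replicate 1. No further normalization was applied. The 57 control probe sets were left out, and log2(signal + 16), which understates changes of low signals, was fitted with strain as the single term in limma 3.58.1 (R 4.3.3; lmFit, eBayes with trend). SDs are on the linear signal, SEs on the log2 scale. Arrays correlated at 0.947 to 0.988, and no pair shared more than 2 identical values.

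Probe sets were taken by annotation symbol for the 9 genes and by symbols updated to GRCr8 for other genes. Genes were named by rule: all probe sets of the 9 genes, list members past the threshold, 10 receptors and proteases, and the 3 most similar genes. Pf4, Cxcl9, Cxcl10, Nfkb1, Nfkbia, the cell type markers given with values and genes named as too dim were chosen after their values were seen. The genes and lists were chosen with earlier results of these data known. Alternatives were scalings, offsets, filters, other eBayes settings, array weights, a replicate block, the median signal as a covariate, 1 probe set a gene, and leaving out arrays.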

Additional observations from a re-analysis of the deposited data

Results flagged for a closer look

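Within strains, 3 values lay far from the other 4 arrays of their group, of 28 groups of 5 compared; chance gives about 1 such group in 20. For Cxcl16, WKY 3 read 61.5 against 37.1 to 42.7 on the other WKY arrays, and without WKY 3 the log2 difference was -0.49 (adjusted p = 0.158). For 1373661_a_at of Cxcr4, WKY 3 read 83.3 against 49.4 to 56.7, and without it the difference was -0.22 (adjusted p = 0.648). For Cxcl1, SHR 5 read 12.4 against 1.14 to 2.90, a signal below the filter.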

How the results depend on the processing

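The difference of the brighter Cxcl14 probe set kept its direction in all 23 alternatives and passed in 22, with an adjusted p from 0.00169 to 0.0706; the exception was the median-signal covariate (-0.42). The count of passing probe sets of the 9 genes, 1, rose to 2 with quantile normalization (Cxcl16), with the replicate block (the dimmer Cxcl14 probe set, 0.42, adjusted p = 0.0469) and without SHR 2 and SHR 3 together (1373661_a_at of Cxcr4), and fell to 0 with the covariate. That of the lists, 3, rose to 4 with the block and with eBayes without trend, fell to 0 with the covariate, was 2 without a filter, with the stricter filter and without SHR 2 and SHR 3 together, and ranged from 1 to 3 with 1 array left out. The array median itself differs between the strains, which the covariate therefore partly stands for; the cause was not tested. Over all probe sets tested the covariate gave 209 calls and the block 1214. Deviations of same-numbered arrays correlated at 0.038 to 0.282, with 2 of the 5 pairs under 0.1. All 5 lay above 0, and differently numbered arrays were not compared, so whether the numbers are pairs was not settled. The main model did not take them as pairs.

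Signs turned only for values that did not pass. With the covariate these were Cx3cl1 (-0.14), the dimmer Cxcl14 probe set (-0.021), 1370097_a_at (-0.018) and 1389244_x_at (-0.082) of Cxcr4. Quantile normalization turned 1370097_a_at to -0.065, and leaving out SHR 2 and SHR 3 turned 1389244_x_at to -0.042. With 1 array left out 1370097_a_at ranged from -0.027 to 0.062 and 1389244_x_at from -0.053 to 0.15. Both kept Cxcl12 probe sets, Cxcl16 and Ccl3 kept their signs throughout. The dim probe sets of Cxcl1, Ccl2, Ccl5 and Cxcl12 could not be judged, and the number of arrays limits every interval.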
